A study of Mus musculus with 8 samples.

Results

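The killer lectin-like receptors of the natural killer gene complex were measured in RNA from CD8 T cells of mouse spleen. Members were all genes of the deposited table whose symbol begins with Klra, Klrb, Klrc, Klrd, Klre, Klrg, Klri or Klrk and whose estimated counts summed to at least 10 over the 8 libraries. Of 30 symbols with such a name, 27 met that minimum, out of 55291 genes in the table. Klra17 was the member with the smallest sum, at 75 counts, and Klra11-ps lay just outside with 5.42. Klrb1-ps1 and Klrg2 had 0 counts. All 27 members are on chromosome 6 of GRCm38 in the GENCODE M21 annotation. Klrg1 (chr6:122270596-122282882) lies apart from the others, which run from Klrb1a (chr6:128609227-128623533) to Klra2 (chr6:131219223-131247362).

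The series compares 4 libraries titled ATF4 overexpression, genotype ATF4 Tg/Tg and here called ATF4OE, with 4 libraries of genotype WT, all from spleens of naïve mice. The sample titles and the cell type label also call the cells themselves naïve CD8 T cells. ATF4 is the transcription factor that carries out much of the integrated stress response. The design text names the mice ATF4Tg/Tg and E8IcreATF4Tg/Tg, the second with a Cre whose E8I enhancer of the Cd8a locus is active in CD8 T cells, so what the WT animals carry is known only from the sample label. Cells were enriched with a magnetic CD8 T cell kit and no flow sort is named, and age and strain are not stated in the labels. The labels do not give the mouse of origin of each sample, so a p-value here reflects spread among samples of a group that may be partly technical.

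Killer lectin-like receptors are C-type-lectin-like proteins that let natural killer (NK) cells and some T cells read class I MHC and stress ligands on other cells. Inhibitory members carry a tyrosine motif (ITIM) in the tail that recruits phosphatases, and activating members signal through adaptor proteins such as DAP12 (Tyrobp), DAP10 (Hcst) or, for NK1.1, the Fc receptor γ chain (Fcer1g). In the spleen they are abundant on NK cells, and smaller sets of them appear on memory-phenotype CD8 T cells, γδ T cells and NKT cells.

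Library totals ran from 93478686 to 125974143 estimated counts, and 17443 to 20330 genes had at least 1 count. The columns of replicates 1 and 2 carry no hyphen before the number and those of replicates 3 and 4 do. What this spelling stands for is not stated. In WT replicates 1 and 4 and ATF4OE replicates 1 and 2, fewer than 1500 genes had a count above 0 and up to 5, so these 4 libraries lack low counts that the others hold (a limit set after the counts were seen). Atf4 was at 285, 308, 165 and 165 CPM (counts scaled to library size) in WT replicates 1 to 4 and at 445, 427, 228 and 212 CPM in ATF4OE. It was higher in ATF4OE within each pair of replicates and overlapped between the groups as a whole (log2 fold change 0.51 ± 0.31 SE, adjusted p = 0.37, or 2.2e-04 with the replicate number as a block). Cd8a, which defines the labelled cell type, was at 995 to 1515 CPM in all 8 libraries.

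Some of the receptor genes were higher in ATF4OE. With the quasi-likelihood test of edgeR, 12 of the 26 members tested passed at an adjusted p below 0.05 and were higher, where 9.16% of all tested genes were called higher. None was lower in that test (4.89% of all genes were), with 1 member lower at an unadjusted p below 0.05 and 0 lower by DESeq2 or limma-voom. The 12 were Klra1, Klra3, Klra7, Klra9, Klra13-ps, Klrb1, Klrb1a, Klrb1b, Klrb1f, Klrc2, Klrg1 and Klrk1. The median log2 fold change of the 26 was 1.81, beside -0.02 over all tested genes. Klra17 did not pass the filter on low counts, and a gene can pass that filter through its higher group alone. In RNA from bulk cells, more cells of a type and more RNA per cell cannot be told apart.

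**Figure D1:**
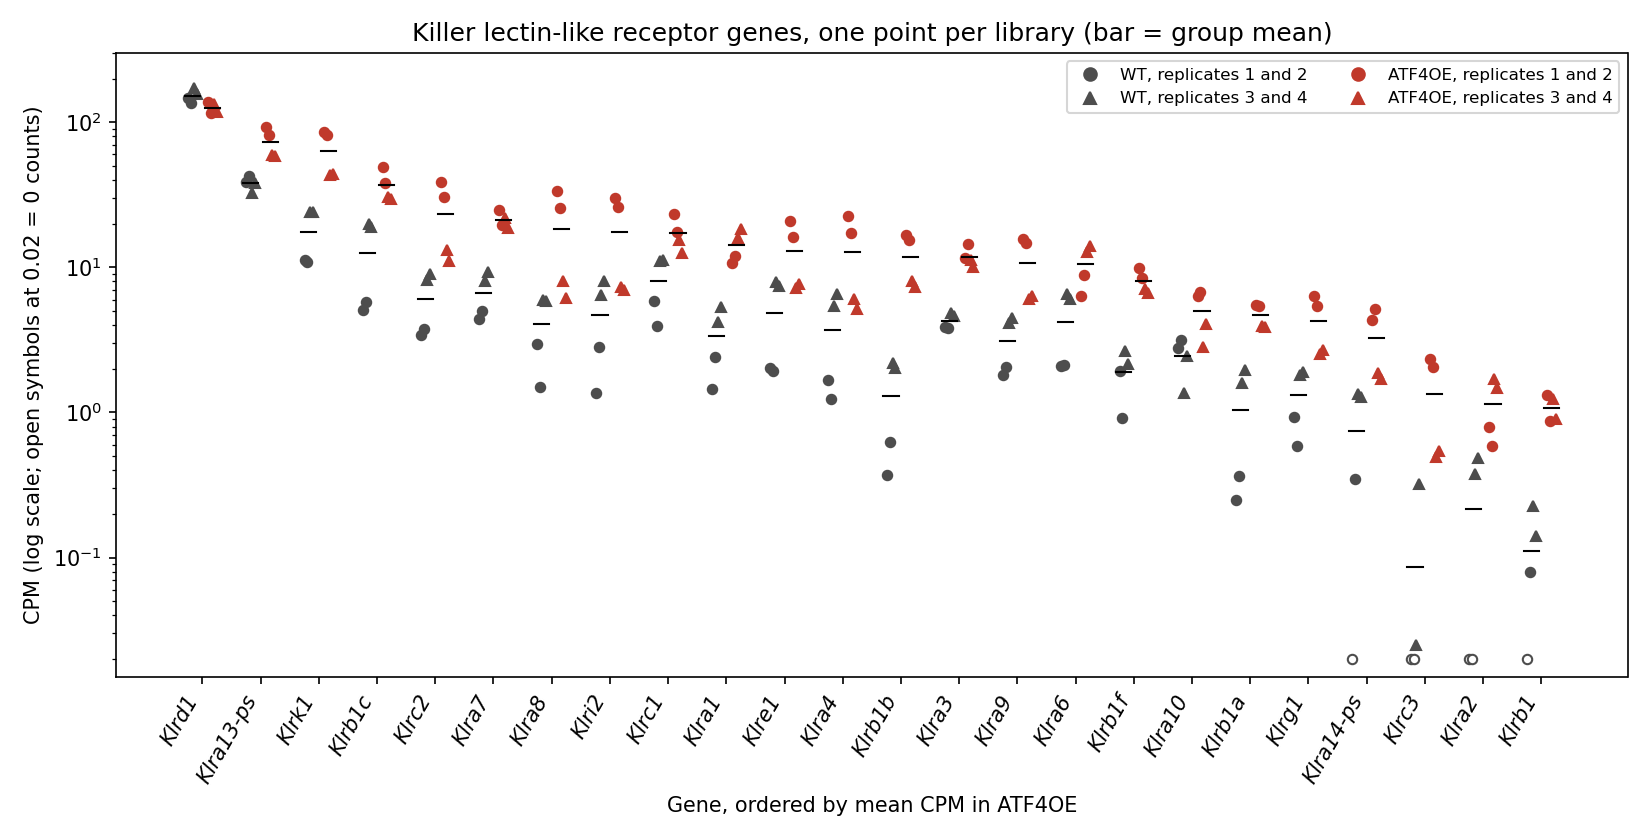
Level of the 24 members with a group mean of at least 1 CPM, in CPM on a log scale, with 1 point per library, circles for replicates 1 and 2, triangles for replicates 3 and 4 and a bar at each group mean. ATF4OE libraries (red) lie above WT libraries (grey) for most genes, Klrd1 is the exception at the left, and for many genes the circles of the 2 groups are much farther apart than the triangles.

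For 19 of the 26 members every ATF4OE library was above every WT library, as in 13.3% of all tested genes, and in 0 every ATF4OE library was below (8.66% of all genes). The groups overlapped for Klra4, Klra5, Klra6, Klra10, Klrd1, Klre1 and Klri2. Summed over all members except Klrd1, the level was 92.3, 96.1, 162 and 172 CPM in WT and 521, 456, 289 and 280 CPM in ATF4OE (replicates 1 to 4). The lowest WT and the highest ATF4OE libraries were therefore both replicates 1 and 2.

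The size of the difference followed that split. In replicates 1 and 2 alone 22 members were higher and 0 lower (6.75% and 3.07% of all genes), with a median log2 fold change of 3.02. In replicates 3 and 4 alone 13 were higher and 1, Klrd1, was lower (14.3% and 8% of all genes), with a median of 0.86. All 26 members had the lower estimate in replicates 3 and 4, and the difference itself passed the interaction test of genotype and column spelling for 13, where 0.998% of all genes did. Both genotypes contributed. WT replicates 1 and 2 were below WT replicates 3 and 4 in 24 of 26 members (27.5% of all genes), and ATF4OE replicates 1 and 2 were above ATF4OE replicates 3 and 4 in 18 of 26 (25.7% of all genes).

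With the replicate number as a block, 10 members were higher and 1, Klrd1, was lower (13.7% and 13.5% of all genes). The column spelling as a block instead gave 14% of all genes higher and 11.6% lower. Klra2, Klra9, Klrb1b, Klrg1 and Klrk1 passed with that block (adjusted p = 0.023, 0.039, 0.017, 0.025 and 0.036) and not with the replicate number. Without the 4 libraries that lack low counts, 3 members were higher, Klra1, Klra3 and Klra7, and 0 lower (7.29% and 1.94% of all genes). This leaves WT replicates 2 and 3 against ATF4OE replicates 3 and 4, so column spelling is not balanced between the genotypes there. The other 9 called members kept a positive estimate there, with adjusted p from 0.057 for Klra13-ps to 0.30 for Klrg1.

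How far the members can be told apart by short reads differs between them. Of all 50-base windows (the read length) in the transcripts of a member, none occurred in a transcript of another gene for Klra2, Klra17, Klrb1, Klrb1f, Klrd1, Klrg1 and Klrk1. The share was 39.8% for Klra10, most of it with Klra9, 38.6% for Klrc1 and 36.3% for Klrc3, most with Klrc2, and 33.1% for Klra8, most with Klra14-ps. It was 31.5% for Klra9, 27.2% for Klrb1b, 25.6% for Klra14-ps and 20.7% for Klra3, and 17.0% or less for the rest. Salmon divides such reads by a model, so the values of these genes are uncertain against each other.

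The start of the coding sequence was used to divide the members by the inhibitory motif. In the longest coding sequence of each protein-coding member, the first 24 codons were searched. The motif sought was isoleucine, leucine, valine or serine, any residue, tyrosine, any 2 residues, and isoleucine, leucine or valine. Other coding sequences of a gene and later codons were not searched. The motif was found in 14 members, Klra1, Klra2, Klra3, Klra5, Klra6, Klra7, Klra9, Klra10, Klra17, Klrb1, Klrb1b, Klrc1, Klrg1 and Klri1. It was not found in 11, Klra4, Klra8, Klrb1a, Klrb1c, Klrb1f, Klrc2, Klrc3, Klrd1, Klre1, Klri2 and Klrk1, and the other 2 are annotated as pseudogenes. The starts of 4 inhibitory and 3 activating receptors, from GENCODE M21 on GRCm38 and written 5′ to 3′ along the coding strand, are shown because the results below are ordered by this split, with the motif in capitals.
Klra1 (Ly49A, inhibitory): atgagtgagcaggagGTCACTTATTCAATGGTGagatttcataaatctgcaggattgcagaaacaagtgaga
Klra7 (Ly49G, inhibitory): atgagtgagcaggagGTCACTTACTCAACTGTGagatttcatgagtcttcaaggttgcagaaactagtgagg
Klra4 (Ly49D, activating): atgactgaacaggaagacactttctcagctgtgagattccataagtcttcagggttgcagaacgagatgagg
Klra8 (Ly49H, activating): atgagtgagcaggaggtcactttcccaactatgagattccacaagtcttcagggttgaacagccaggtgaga
Klrc1 (NKG2A, inhibitory): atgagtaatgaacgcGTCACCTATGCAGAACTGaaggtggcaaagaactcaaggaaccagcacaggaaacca
Klrc2 (NKG2C, activating): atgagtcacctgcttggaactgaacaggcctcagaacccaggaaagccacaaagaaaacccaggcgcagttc
Klrg1 (inhibitory): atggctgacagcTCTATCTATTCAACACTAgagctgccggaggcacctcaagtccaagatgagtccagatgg
Klra1, Klra7 and Klrc1 have the motif at codon 6, counted from the start codon, and Klrg1 at codon 5.

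Klra1, Klra3, Klra6 and Klra7, which encode inhibitory Ly49 receptors for class I MHC, were higher within both pairs of replicates. Klra1 (Ly49A, chr6:130363917-130386874) was at 1.46, 2.42, 4.23 and 5.36 CPM in WT replicates 1 to 4 and at 10.8, 11.9, 16.0 and 18.2 CPM in ATF4OE. The groups did not overlap, and in both of them replicates 3 and 4 were the higher. The log2 fold change of Klra1 was 2.08 ± 0.37 (SE, adjusted p = 0.0051), with 2.58 in replicates 1 and 2 and 1.84 in replicates 3 and 4, and the interaction was not called (adjusted p = 0.41). Klra7 (Ly49G, chr6:130218605-130233322) was at 4.44, 4.97, 8.03 and 9.23 CPM in WT and at 24.7, 19.7, 21.9 and 18.5 CPM in ATF4OE. All 4 ATF4OE libraries were well above the highest WT library, with 6.67 ± 2.33 against 21.2 ± 2.73 CPM (SD, n = 4 each). On the log2 scale Klra7 was 1.67 ± 0.24 higher (SE, adjusted p = 0.0014), 2.27 and 1.23 in the pairs. Klra3 (Ly49C, chr6:130323289-130337574) was at 3.89, 3.79, 4.83 and 4.62 CPM in WT and at 11.6, 14.4, 11.2 and 10.04 CPM in ATF4OE. Its WT libraries lay close together, without the gap between pairs of replicates seen in other members. Klra3 had a log2 fold change of 1.46 ± 0.17 (SE, adjusted p = 4.2e-04), 1.79 and 1.17 in the pairs.

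Klra1, Klra3 and Klra7 passed in all 8 fits that leave out 1 library and with the replicate block. They also passed in the 4 libraries that hold low counts, where column spelling is not balanced between the genotypes. Klra6 (Ly49F, chr6:130013033-130026954) was at 2.09, 2.12, 6.53 and 6.07 CPM in WT and at 6.39, 8.85, 12.8 and 14.0 CPM in ATF4OE. Its groups overlapped by 1 library, since ATF4OE replicate 1 was just under WT replicate 3. Its difference of 1.32 ± 0.43 on the log2 scale missed the threshold (SE, adjusted p = 0.072), and the gene passed with the replicate block (adjusted p = 8.3e-04) and within each pair (1.89 and 1.09).

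Klra9 (Ly49I, chr6:130178675-130193112) was, with Klra2, 1 of 2 inhibitory Ly49 genes with a called interaction. It was at 1.81, 2.07, 4.13 and 4.47 CPM in WT and at 15.6, 14.7, 6.05 and 6.36 CPM in ATF4OE, so replicates 1 and 2 held the lower WT and the higher ATF4OE values. Klra9 was higher by 1.77 ± 0.42 on the log2 scale (SE, adjusted p = 0.019). The difference was 3.00 in replicates 1 and 2 and 0.53 in replicates 3 and 4 (adjusted p = 0.054), with an interaction of -2.43 (adjusted p = 0.0013). This call did not hold with the replicate block (adjusted p = 0.11), nor when WT replicate 1, WT replicate 2 or ATF4OE replicate 2 was left out (0.018 to 0.057 over the 8 fits).

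Other inhibitory Ly49 genes were near the limit of detection or overlapped. Klra10 (Ly49J) was at 2.77, 3.18, 1.36 and 2.44 CPM in WT and at 6.34, 6.76, 2.84 and 4.10 CPM in ATF4OE, a log2 fold change of 1.04 ± 0.34 (SE, adjusted p = 0.076, or 0.0039 with the replicate block). It is one of 2 tested members whose WT libraries were not all lower in replicates 1 and 2, and the one with the largest share of windows found in other genes. Klra2 (Ly49B) had 0 counts in WT replicates 1 and 2, 0.375 and 0.485 CPM in WT replicates 3 and 4, and 0.793, 0.585, 1.71 and 1.46 CPM in ATF4OE. Against a floor of 3 counts over WT replicates 1 and 2, it was 44.0-fold higher in ATF4OE in that pair. WT replicate 1 is among the libraries that lack low counts, so this fold is not a firm lower bound. Over all libraries Klra2 did not pass (log2 fold change 2.38 ± 1.24 SE, adjusted p = 0.27). It passed within replicates 1 and 2 (adjusted p = 0.022) and within replicates 3 and 4 (log2 fold change 1.88, adjusted p = 0.017). Klra2 passed with the column spelling as a block (adjusted p = 0.023) and did not with the replicate block (adjusted p = 0.056). Its interaction was called (adjusted p = 0.046). Klra5 (Ly49E) stayed between 0.109 and 0.745 CPM (adjusted p = 0.25), and Klra17 (Ly49Q) at or below 0.328 CPM.

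The activating Ly49 receptors, Klra4 and Klra8, pair with DAP12. Klra8 (Ly49H, which recognises the m157 protein of mouse cytomegalovirus; chr6:130115226-130129898) was at 2.97, 1.4996, 5.93 and 5.84 CPM in WT and at 33.5, 25.6, 8.11 and 6.13 CPM in ATF4OE. The ATF4OE group split into a high pair and a pair just above WT, which gave 18.3 ± 13.4 CPM against 4.06 ± 2.19 CPM (SD, n = 4 each). This difference, 2.17 ± 0.63 on the log2 scale (SE), missed the threshold (adjusted p = 0.054). In replicates 1 and 2 it was 3.76 (adjusted p = 3.1e-04) and in replicates 3 and 4 it was 0.28 (adjusted p = 0.33), an interaction of -3.45 (adjusted p = 0.0043). Klra4 (Ly49D, chr6:130043731-130067271) was at 1.67, 1.24, 5.40 and 6.55 CPM in WT and at 22.4, 17.3, 6.04 and 5.17 CPM in ATF4OE. In replicates 3 and 4 the genotypes overlapped. Over all libraries the log2 fold change was 1.77 ± 0.66 (SE, adjusted p = 0.12), 3.80 in replicates 1 and 2 (adjusted p = 6.4e-05) and -0.09 in replicates 3 and 4 (adjusted p = 0.77), with an interaction of -3.86 (adjusted p = 4.9e-04).

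Of the 2 Ly49 pseudogenes, Klra13-ps (chr6:130290878-130306428) had the higher level per kilobase of exon, 36.4 against 0.668 CPM per kilobase in WT. It was at 38.5, 42.6, 32.5 and 37.9 CPM in WT and at 92.8, 81.1, 59.6 and 58.9 CPM in ATF4OE, with no overlap. The log2 fold change of Klra13-ps was 0.95 ± 0.15 (SE, adjusted p = 0.0030), 1.13 and 0.75 in the pairs. It shared 13.7% of its windows, most of them with Klra7. Klra14-ps was at 0, 0.348, 1.34 and 1.28 CPM in WT and at 4.33, 5.18, 1.88 and 1.70 CPM in ATF4OE (log2 fold change 2.13 ± 1.02 SE, adjusted p = 0.22), and it shares windows with Klra8. Over the 12 tested Ly49 genes, 5 were called higher, 10 in replicates 1 and 2 and 6 in replicates 3 and 4 (9.16%, 6.75% and 14.3% of all genes).

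The NKR-P1 receptors (Klrb1 genes), which bind C-type-lectin-related proteins of the Clec2 family, were all separated between the groups, and 4 of 5 passed. Among all tested genes, 13.3% were separated with ATF4OE above WT and 9.16% were called higher. Klrb1b (NKR-P1B, inhibitory, chr6:128813706-128826331) was at 0.373, 0.626, 2.18 and 2.04 CPM in WT and at 16.7, 15.3, 8.05 and 7.35 CPM in ATF4OE. Klrb1b had a log2 fold change of 3.18 ± 0.58 (SE, adjusted p = 0.0063). The difference was 5.02 in replicates 1 and 2 and 1.87 in replicates 3 and 4, each called (adjusted p = 4.7e-05 and 7.2e-04), with an interaction of -3.12 (adjusted p = 0.0020). It passed without any single library and did not with the replicate block (adjusted p = 0.064). Klrb1f (NKR-P1F, chr6:129045901-129057464) was at 1.92, 0.924, 2.65 and 2.15 CPM in WT and at 9.94, 8.41, 7.10 and 6.64 CPM in ATF4OE. It is a member with no shared window and no called interaction (adjusted p = 0.30). On the log2 scale it was higher by 2.07 ± 0.31 (SE, adjusted p = 0.0019), 2.73 and 1.52 in the pairs.

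Klrb1c (NK1.1, activating, the usual surface marker of NK cells in C57BL/6 mice; chr6:128778485-128789215) was at 5.07, 5.81, 20.0 and 19.1 CPM in WT and at 49.5, 38.0, 30.4 and 29.8 CPM in ATF4OE. The groups did not overlap, and WT replicates 3 and 4 were far above WT replicates 1 and 2. Over all libraries the gene did not pass (log2 fold change 1.56 ± 0.47 SE, adjusted p = 0.060). Within each pair it did, at 3.04 (adjusted p = 3.8e-05) and 0.62 (adjusted p = 0.0037), and the interaction was -2.39 (adjusted p = 4.9e-04). Klrb1a (NKR-P1A) was at 0.249, 0.367, 1.60 and 1.96 CPM in WT and at 5.48, 5.41, 3.93 and 3.88 CPM in ATF4OE, a log2 fold change of 2.16 ± 0.60 (SE, adjusted p = 0.040). That call held in 1 of 8 fits with a library left out, the one without WT replicate 4, and the adjusted p ranged from 0.027 to 0.082 over them. Klrb1 was at 0, 0.0794, 0.225 and 0.140 CPM in WT and at 1.31, 0.868, 1.24 and 0.895 CPM in ATF4OE. It had 52 counts in WT in all and a log2 fold change of 3.25 ± 0.87 (SE, adjusted p = 0.034). Its call held without WT replicate 1 or WT replicate 3 and not without any other library (0.010 to 0.085 over the 8 fits).

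CD94 and the NKG2 chains form heterodimers that read the class I molecule Qa-1, and of the 4 genes for them Klrc2 alone passed over all libraries. Klrd1 (CD94, chr6:129591782-129598775) was at 147, 136, 173 and 156 CPM in WT and at 138, 115, 134 and 118 CPM in ATF4OE. The groups overlapped at WT replicate 2 and ATF4OE replicate 1, with 153 ± 16.0 and 126.2 ± 11.2 CPM (SD, n = 4 each). The difference of -0.28 ± 0.09 on the log2 scale missed the threshold (SE, adjusted p = 0.085). It was lower with the replicate block (-0.27, adjusted p = 0.0081) and within replicates 3 and 4 (-0.38, adjusted p = 0.027), and no interaction was called (adjusted p = 0.58). Klrd1 was also the member with the highest level per kilobase of exon, at 119 CPM per kilobase in WT and 98.5 in ATF4OE. It held 53.9% of the summed CPM of all members in WT and 24.6% in ATF4OE.

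Klrc1 (NKG2A, the inhibitory partner, chr6:129666015-129678973) was at 5.85, 3.93, 10.98 and 11.3 CPM in WT and at 23.3, 17.5, 15.3 and 12.6 CPM in ATF4OE. The groups did not overlap, and the log2 difference, 1.10 ± 0.33 (SE), missed the threshold (adjusted p = 0.058). It was 2.09 in replicates 1 and 2 (adjusted p = 0.0013) and 0.33 in replicates 3 and 4 (adjusted p = 0.13), an interaction of -1.73 (adjusted p = 0.029). Klrc2 (NKG2C, the activating partner, chr6:129647496-129660689) was at 3.45, 3.73, 8.14 and 8.98 CPM in WT and at 39.0, 30.7, 13.2 and 11.03 CPM in ATF4OE. Replicates 1 and 2 held both the lowest WT and the highest ATF4OE values. Klrc2 was higher by 1.95 ± 0.49 on the log2 scale (SE, adjusted p = 0.030), 3.31 and 0.50 in the pairs, both called (adjusted p = 2.3e-05 and 0.047), with an interaction of -2.78 (adjusted p = 4.9e-04). It did not pass with the replicate block (adjusted p = 0.20), nor without WT replicate 1, 2 or 3 or ATF4OE replicate 1 or 2 (0.025 to 0.079 over the 8 fits). Klrc3 (NKG2E) had 0 counts in WT replicates 1 and 2, 0.0250 and 0.321 CPM in WT replicates 3 and 4, and 2.32, 2.05, 0.490 and 0.544 CPM in ATF4OE. In replicates 1 and 2 it was 139-fold higher, against a floor of 3 counts over the WT pair, and over all libraries it did not pass (adjusted p = 0.086). This fold is not a firm lower bound, since WT replicate 1 lacks low counts and Klrc3 shares 36.3% of its windows, most with Klrc2. The counts of Klrd1 per count of Klrc1 were 25.1, 34.5, 15.8 and 13.8 in WT and 5.92, 6.57, 8.72 and 9.36 in ATF4OE, so every ATF4OE library was below every WT library.

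Klrk1 (NKG2D, the receptor for stress-induced ligands of the Raet1, H60 and Ulbp1 type; chr6:129610323-129623864) is an activating receptor that signals through DAP10 and, in mice, DAP12. It was at 11.2, 10.9, 24.2 and 24.01 CPM in WT and at 85.7, 81.8, 43.0 and 43.9 CPM in ATF4OE. Libraries of a pair were nearly equal within each genotype, and the pairs were not. Klrk1 was higher by 1.85 ± 0.36 on the log2 scale (SE, adjusted p = 0.0095), 2.95 in replicates 1 and 2 (adjusted p = 3.3e-06) and 0.85 in replicates 3 and 4 (adjusted p = 5.7e-04). Its interaction, -2.07, had the smallest adjusted p of the members (3.6e-05). It passed without any single library and did not with the replicate block (adjusted p = 0.11).

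Klre1 pairs with Klri1 to form an inhibitory receptor and with Klri2 to form an activating one. Klre1 (chr6:129577905-129585827) was at 2.03, 1.95, 7.97 and 7.47 CPM in WT and at 20.7, 16.1, 7.25 and 7.63 CPM in ATF4OE. Klri2 (chr6:129729041-129740484) was at 1.36, 2.83, 6.45 and 8.01 CPM in WT and at 29.9, 26.2, 7.33 and 7.01 CPM in ATF4OE. For both genes the genotypes were apart in replicates 1 and 2 and overlapped in replicates 3 and 4. The log2 fold changes over all libraries, 1.41 ± 0.56 for Klre1 and 1.92 ± 0.67 for Klri2 (SE), did not pass (adjusted p = 0.14 and 0.10). For Klre1 the difference was 3.24 (adjusted p = 6.9e-05) in replicates 1 and 2 and -0.05 (adjusted p = 0.84) in replicates 3 and 4, with an interaction of -3.26 (adjusted p = 3.2e-04). For Klri2 it was 3.77 (adjusted p = 3.3e-04) and -0.01 (adjusted p = 0.98), with an interaction of -3.75 (adjusted p = 0.0022). Klri1 was at 0.0298 to 0.309 CPM in WT and at 0.547 to 1.09 CPM in ATF4OE, without overlap (log2 fold change 2.42 ± 0.77 SE, adjusted p = 0.065, or 0.048 with the replicate block).

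Klrg1, an inhibitory receptor for cadherins and a marker of terminally differentiated effector T cells and mature NK cells, was at 0.938, 0.586, 1.83 and 1.91 CPM in WT and at 6.31, 5.41, 2.54 and 2.69 CPM in ATF4OE. All ATF4OE libraries were above all WT libraries. Klrg1 was higher by 1.69 ± 0.45 on the log2 scale (SE, adjusted p = 0.034), 2.98 in replicates 1 and 2 (adjusted p = 0.0015) and 0.49 in replicates 3 and 4 (adjusted p = 0.20), with an interaction of -2.46 (adjusted p = 0.029). With the replicate block it did not pass (adjusted p = 0.060), nor with WT replicate 1 or 2 or ATF4OE replicate 1 or 2 left out (0.033 to 0.091 over the 8 fits).

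**Figure D2:**
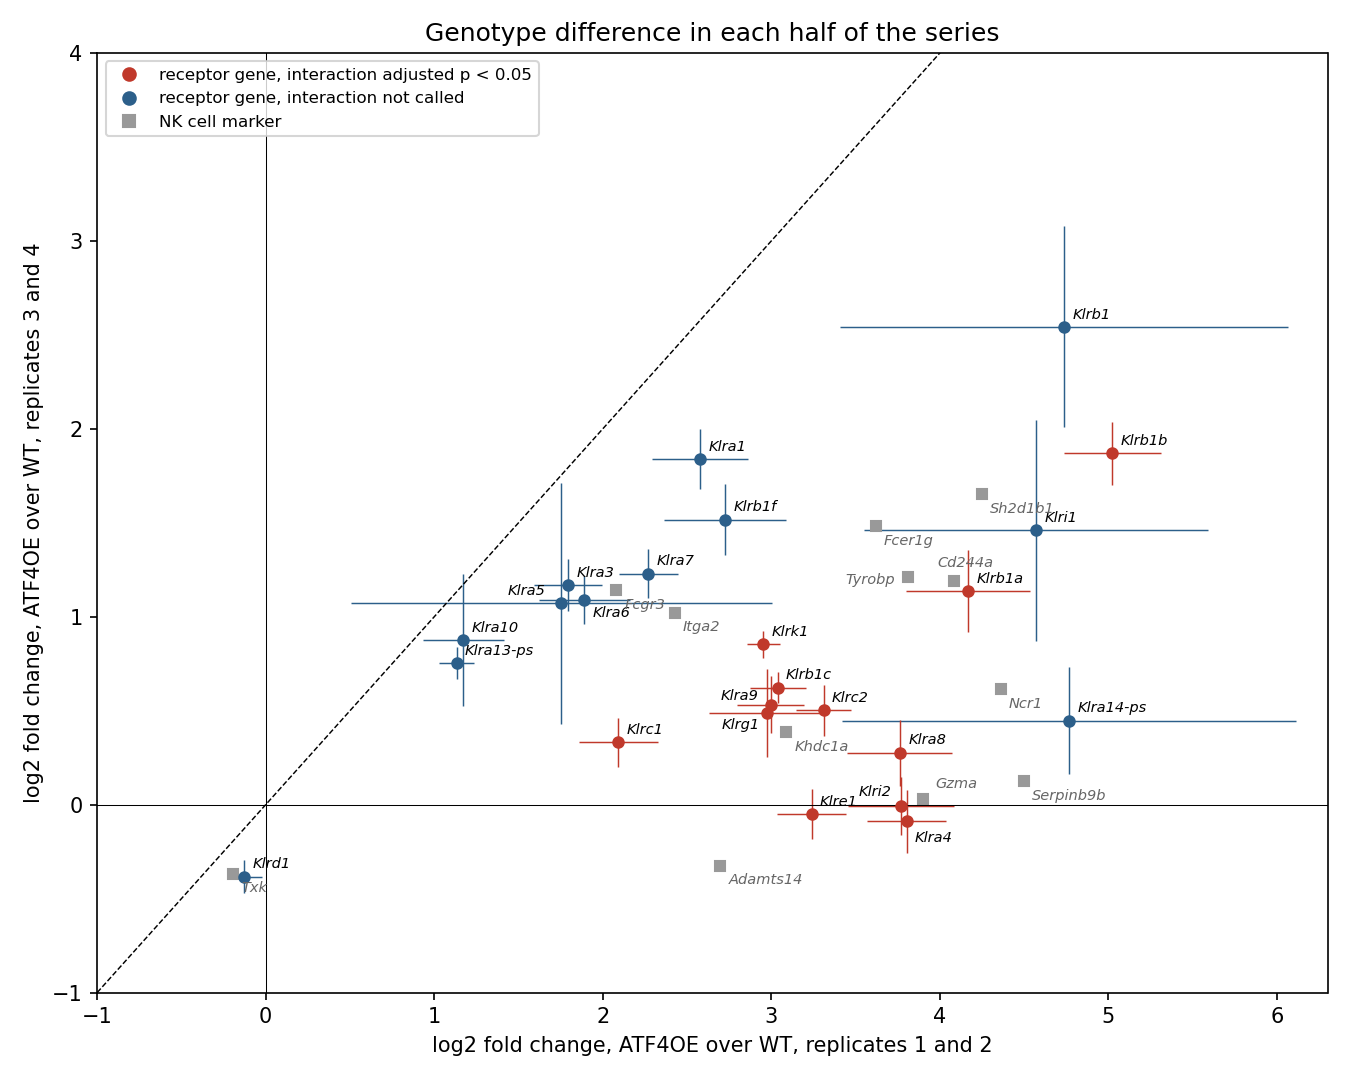
Log2 fold change of ATF4OE over WT in replicates 3 and 4 (vertical) against replicates 1 and 2 (horizontal), with bars of 1 SE, for the tested members with counts in WT replicates 1 and 2 (circles, red where the interaction was called) and the tested NK cell markers (grey squares), with equality dashed. All circles lie below the dashed line, Klra4, Klre1 and Klri2 lie at about 0 on the vertical axis, and the red circles have horizontal values from 2.09 (Klrc1) to 5.02 (Klrb1b).

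Members called higher were found both among those with the inhibitory codons and among those without. Of 13 tested members with the motif 7 were called higher and the interaction was called for 5, with median log2 fold changes of 2.58 in replicates 1 and 2 and 1.17 in replicates 3 and 4. Of the 11 without it 4 were called higher and the interaction was called for 8, with medians of 3.31 and 0.50. No test of the difference between these 2 lists was made. Among all tested genes, 9.16% were called higher and 0.998% had a called interaction. Klrb1b and Klrg1 have the motif and a called interaction, while Klrb1f lacks the motif and had none called, so the split by codons is not a clean one. Along the chromosome, no interaction was called for the adjacent Ly49 genes Klra7, Klra10, Klra13-ps, Klra3 and Klra1 at the right of the plot of gene order, nor for Klra5, Klra6 and Klra14-ps, while it was called for Klra4, Klra8, Klra9 and Klra2. Klra14-ps had only 35 counts in WT replicates 1 and 2. Its estimates were 4.77 and 0.45 in the pairs, an interaction of -4.29 ± 1.34 (SE, adjusted p = 0.23), so its missing call does not show equal differences.

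**Figure D3:**
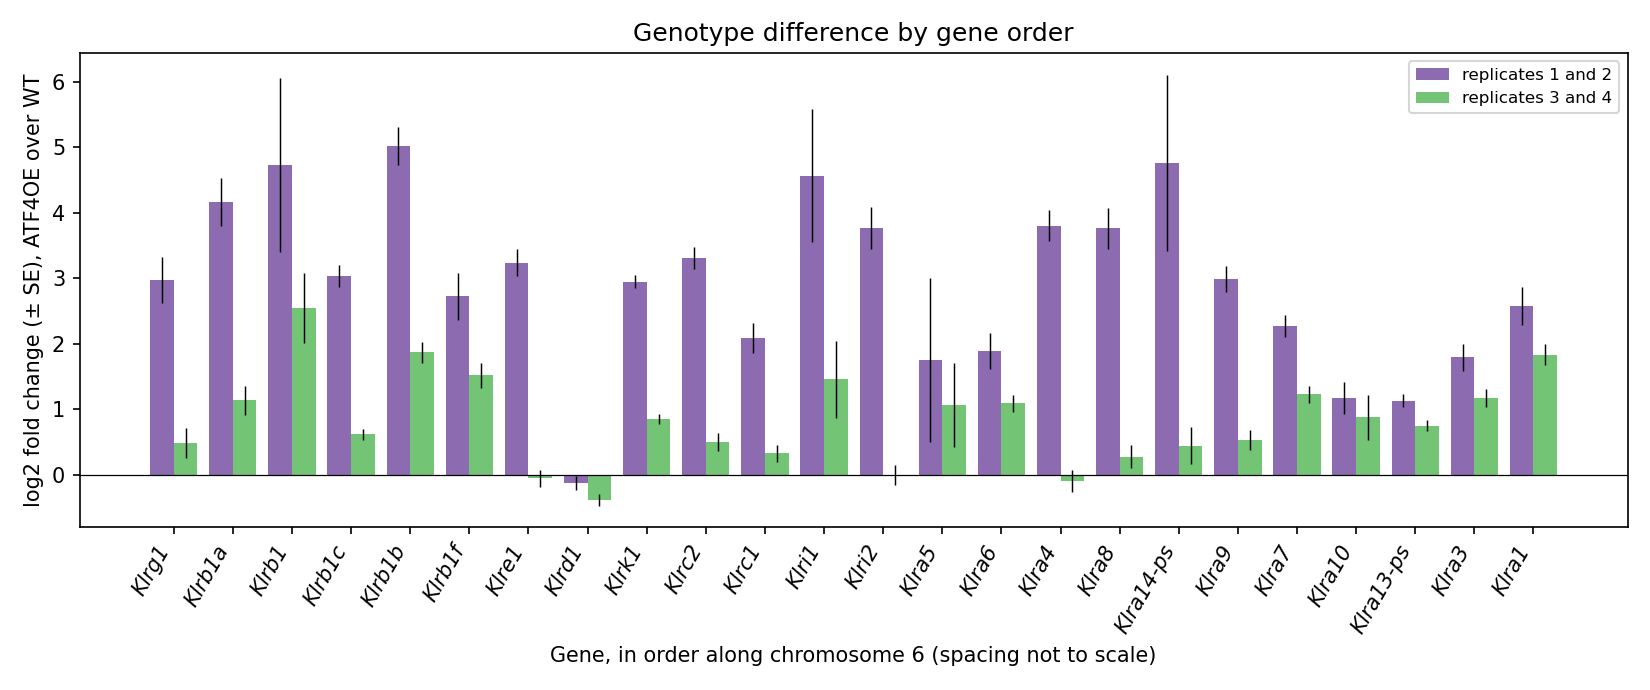
Log2 fold change of ATF4OE over WT with its SE, on the vertical axis, for tested members with counts in WT replicates 1 and 2, in order along chromosome 6 and not to scale, in replicates 1 and 2 (purple) and replicates 3 and 4 (green). The purple bar is the higher for every gene, and the green bars of Klre1, Klri2, Klra4 and Klra8 are at or near 0, from -0.09 to 0.28.

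The adaptors of the receptors differed from each other. Of 14 adaptor and signalling genes 6 were called higher and 0 lower (with the replicate block 5 and 3), with a median log2 fold change of 0.10. The shares of all genes were 9.16% and 4.89%, or 13.7% and 13.5% with the block. Tyrobp (DAP12) was at 2.15, 2.68, 10.8 and 8.22 CPM in WT and at 34.5, 31.9, 23.04 and 20.8 CPM in ATF4OE, a log2 fold change of 2.21 ± 0.50 (SE, adjusted p = 0.020, or 0.098 with the replicate block and 0.065 without ATF4OE replicate 3). Its interaction was called (-2.57, adjusted p = 9.6e-04). Fcer1g, the γ chain, was at 2.16, 3.01, 7.52 and 9.09 CPM in WT and at 30.8, 31.4, 23.2 and 23.1 CPM in ATF4OE (log2 fold change 2.31 ± 0.43 SE, adjusted p = 0.0071, or 0.049 with the replicate block), with a called interaction (-2.11, adjusted p = 0.0025). Hcst (DAP10) was at 31.6 to 39.2 CPM in ATF4OE and 38.8 to 52.5 CPM in WT (log2 fold change -0.40 ± 0.12 SE, adjusted p = 0.052, or 0.0017 with the replicate block). Syk, a kinase recruited by DAP12, was at 4.25, 5.70, 5.71 and 7.38 CPM in WT and at 54.2, 40.6, 36.6 and 42.0 CPM in ATF4OE, with 3.28 and 2.59 in the pairs and no called interaction (adjusted p = 0.33). Plcg2, which acts downstream of it, was 2.05 higher on the log2 scale (adjusted p = 2.6e-05), also without one (adjusted p = 0.39). Both are also high in B cells and myeloid cells.

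Ligands of the receptors, apart from Cdh1, did not share the increase. Of 18 ligand genes 11 were tested, and edgeR called 0 in either direction, with 4 lower and 1 higher at an unadjusted p below 0.05, 3 lower and 1 higher by DESeq2, and 2 lower by limma-voom. With the replicate block 8 were lower and 1, Cdh1, higher. Among all tested genes edgeR called 4.89% lower and 9.16% higher, or 13.5% lower and 13.7% higher with that block. Cdh1, a cadherin, was at 1.05 to 3.41 CPM in WT and 3.56 to 4.53 CPM in ATF4OE, without overlap. Its log2 fold change was 0.89 ± 0.33 (SE, adjusted p = 0.11, or 0.038 with the block). H2-K1 and H2-D1, classical class I molecules read by Ly49 receptors, were at 2570 ± 277 against 3162 ± 203 CPM and at 1738 ± 106 against 2039 ± 142 CPM in ATF4OE and WT (SD, n = 4 each). Their adjusted p were 0.052 and 0.073, or 0.0011 and 0.0018 with the block. B2m, the light chain of class I, was at 2102 ± 210 CPM in ATF4OE and 2556 ± 159 CPM in WT (adjusted p = 0.057, or 0.0010 with the block). H2-Q7, a non-classical class I gene, was at 2500, 2445, 1629 and 1542 CPM in WT and at 1601, 1543, 1062 and 1015 CPM in ATF4OE, where the groups overlapped. Its log2 fold change of -0.64 ± 0.21 (SE) was not called over all libraries (adjusted p = 0.076). It was lower within replicates 1 and 2 (-0.62, adjusted p = 0.0027), within replicates 3 and 4 (-0.61, adjusted p = 0.0013), with the block (adjusted p = 7.0e-06) and in the 4 libraries that do hold low counts (-0.97, adjusted p = 0.043). In those 4 libraries column spelling is not balanced between the genotypes, and H2-Q7 differed by spelling in both genotypes.

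Markers of NK cells moved with the receptors. Of 12 such genes 6 were called higher and 1, Txk, lower, and 7 had a called interaction (9.16%, 4.89% and 0.998% of all genes). The list's median log2 fold change was 3.71 in replicates 1 and 2 and 0.82 in replicates 3 and 4. Their summed level was 210 to 284 CPM in WT and 283 to 528 CPM in ATF4OE, and none was at 0 in all WT libraries. Txk made up most of the WT sum, at 171 to 198 CPM in WT and 138 to 162 CPM in ATF4OE, so the sum mainly reflects that gene in WT. Ncr1 (NKp46), one of the listed NK cell markers, was at 2.07, 2.13, 7.80 and 8.04 CPM in WT and at 44.4, 39.9, 11.7 and 12.6 CPM in ATF4OE. The pairs of libraries thus stood in the same order as for Klra8. Ncr1 was higher by 2.43 ± 0.66 on the log2 scale (SE, adjusted p = 0.043), a call that did not hold with the replicate block (0.24) or with any of the 8 libraries left out (0.058 to 0.094). The difference was 4.36 and 0.62 in the pairs of replicates, with an interaction of -3.71 (adjusted p = 1.3e-05). The part of NK cells in the receptor differences was not tested.

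Set against Ncr1 library by library, the members fell into different patterns. The Klra8 level per Ncr1 level was 0.488 to 1.44 and the Klri2 level per Ncr1 level 0.558 to 1.33 over all 8 libraries, and the genotypes overlapped in both ratios. For Klra4 it was 0.584 to 0.815 in WT and 0.411 to 0.517 in ATF4OE, without overlap. For Klra1, Klra3, Klra6, Klrc1, Klrd1, Klre1 and Klrk1 the ratio was lowest in ATF4OE replicates 1 and 2. Klra6 per Ncr1 was 1.01, 0.995, 0.837 and 0.755 in WT and 0.144, 0.222, 1.09 and 1.12 in ATF4OE, and Klra1 per Ncr1 was 0.705, 1.14, 0.542 and 0.667 in WT and 0.243, 0.299, 1.37 and 1.45 in ATF4OE. For Klra1 the ATF4OE libraries of replicates 3 and 4 were thus above and those of replicates 1 and 2 below every WT library. Klrd1 per Ncr1 ran from 2.89 to 70.9. These genes were chosen for display after their values were seen, and the ratios carry no test.

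**Figure D4:**
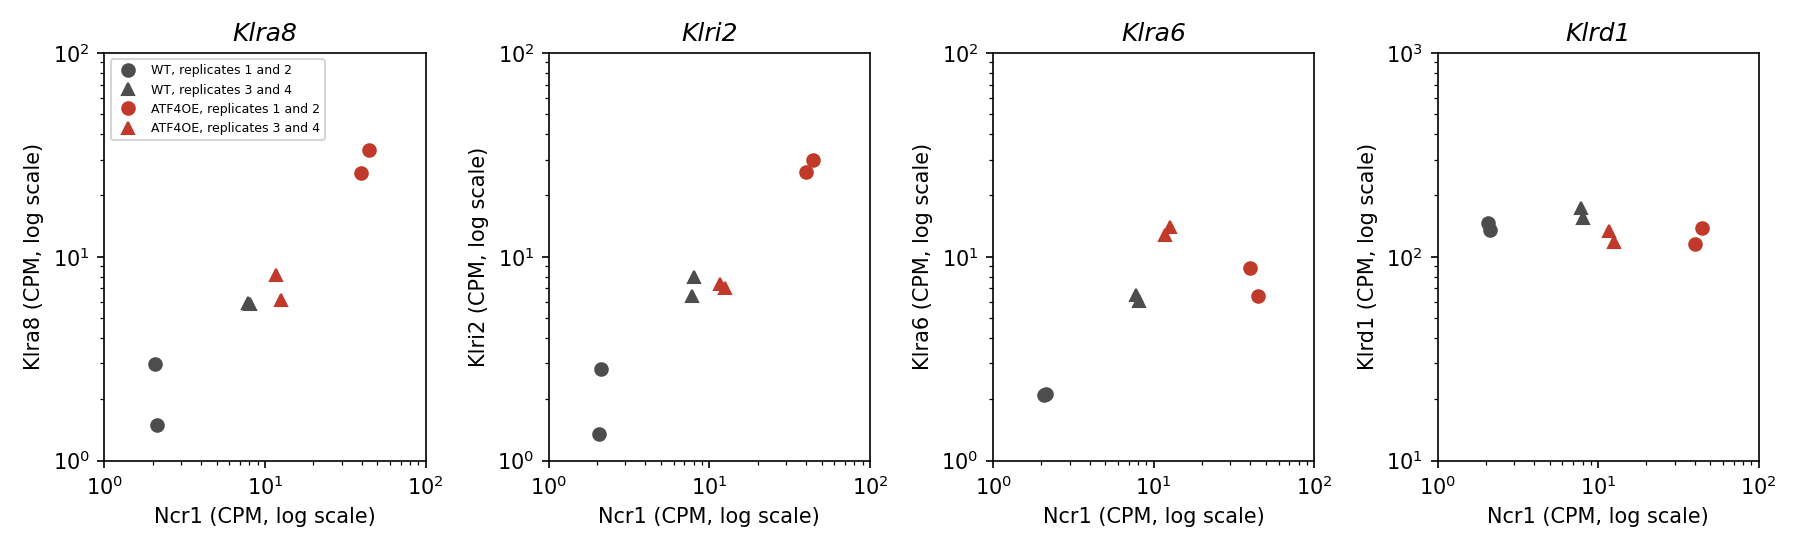
Level of Klra8, Klri2, Klra6 and Klrd1 against Ncr1, in CPM on log scales, with 1 point per library, WT grey, ATF4OE red, circles for replicates 1 and 2 and triangles for replicates 3 and 4. Klra8 and Klri2 are highest in the 2 libraries where Ncr1 is highest, Klra6 is highest in the ATF4OE triangles (12.8 and 14.0 CPM) although their Ncr1 is far below that of the ATF4OE circles, and Klrd1 stays between 115 and 173 CPM.

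Other cell types that can carry these receptors were checked in the same way. Of 12 markers of memory-phenotype CD8 T cells 5 were higher and 0 lower, among them Cd44, with 51.3 ± 8.74 CPM in WT and 81.6 ± 8.78 CPM in ATF4OE (SD, n = 4 each), and Eomes was at 83.0 to 123 CPM in all libraries (adjusted p = 0.92). Of 7 tested γδ T cell markers 6 were higher. The other, Cd163l1, had a log2 fold change of -0.25 ± 0.12 (SE, adjusted p = 0.22) and was called lower in replicates 3 and 4 alone (-0.42, adjusted p = 0.028). Of 4 iNKT cell markers 1 was higher, Zbtb16 (PLZF), with 1.23, 1.04, 2.98 and 2.23 CPM in WT and 8.18, 9.16, 13.1 and 14.6 CPM in ATF4OE. Unlike Ncr1, Zbtb16 was higher in replicates 3 and 4 in both groups, and its interaction was not called (adjusted p = 0.50). Of 6 CD8 T cell markers 4 were lower, with Cd8a at a log2 fold change of -0.36 ± 0.08 (SE, adjusted p = 0.013). Markers of CD4 T cells (3 of 4), B cells (4 of 5), myeloid cells (5 of 7) and erythroid cells (3 of 4) were also higher. Among all tested genes, 9.16% were called higher and 4.89% lower. The lists share genes, so their counts are not separate. Tyrobp and Fcer1g are in the adaptor, NK cell and myeloid lists, and Sh2d1b1 is in the adaptor and NK cell lists. Zbtb16 is also in the list of transcription factors. The B cell count was 0 without WT replicate 4 or ATF4OE replicate 2, 1 without WT replicate 3 and 2 without ATF4OE replicate 1, and the myeloid count was 3 without ATF4OE replicate 3. In the 4 libraries that do hold low counts, the calls were 3 higher for adaptor and signalling genes, 2 for NK cells, 1 for memory-phenotype CD8 T cells, 5 for γδ T cells, 1 for CD4 T cells, 0 for B cells, 3 for myeloid cells, 4 for erythroid cells and 0 lower for CD8 T cells. Among all genes tested in those 4 libraries, 7.29% were called higher and 1.94% lower. The part of these cell types in the receptor differences was not tested.

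Transcription factors of NK and memory-phenotype cells were higher for 5 of 12 genes and lower for 0 (9.16% and 4.89% of all genes). The count higher was 3 when WT replicate 1, WT replicate 3, ATF4OE replicate 1 or ATF4OE replicate 2 was left out. Zeb2, a factor of terminal NK and CD8 T cell maturation, was at 3.26 to 5.51 CPM in WT and 21.6 to 33.5 CPM in ATF4OE (log2 fold change 2.64, adjusted p = 4.5e-05), and Ikzf2 (Helios) at 19.5 to 36.1 CPM and 80.7 to 93.5 CPM (1.61, adjusted p = 2.7e-04). Neither had a called interaction (adjusted p = 0.85 and 0.30). Among 10 tested neighbours of the receptors in the gene complex, 3 were higher and 0 lower. With the replicate block 7 were higher and 2 lower (13.7% and 13.5% of all genes). The 3 called over all libraries were Styk1 (2.47, adjusted p = 0.0069), Gabarapl1 (1.95, adjusted p = 0.0066) and Clec12a (2.98, adjusted p = 0.010), the last a receptor of myeloid cells.

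The promoters were searched for TGATGNAA, a form of the composite element at which ATF4 binds with C/EBP proteins, on both strands of the 250 bases before each start in the RefSeq promoters of GRCm38.p6. Of 23 matching-name receptor genes with a promoter there, 2 held it (8.70%), and of all 27025 genes 1056 did (3.91%). The 2 stretches are shown, on the strand of the gene, as the only matches among the members, with the match in capitals.
Klre1 (chr6:129578038-129578067, plus strand, GRCm38.p6): ggaatatttgaTTACATCAatgtttgcttg
Klra10 (chr6:130282093-130282122, minus strand, GRCm38.p6): agtcttacctgTGATGGAAattgggatcag
In Klre1 the element reads on the opposite strand, 164 and 237 bases before the 2 listed RefSeq starts, and in Klra10 it reads on the given strand, 183 bases before the start. In the GENCODE M21 annotation Klre1 starts at 129577905, so there the stretch lies inside the gene. Neither gene passed over all libraries, and a match is a description of the sequence and not a bound site.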

How the data were processed

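RNA from 8 samples was sequenced as polyadenylated libraries with paired reads of 50 bases, per the labels. The authors deposited 1 table of estimated counts by gene symbol, and the submitters' processing notes name Salmon and GRCm38.p6. Strand setting, trimming and annotation release are details not given in the sources used here. No column of the table was left out (0 unused). Estimated counts were rounded to whole numbers. All 16630 genes passing filterByExpr were fitted together with edgeR 4.0.16 (R 4.3.3; TMM, robust quasi-likelihood test, group as the only term), with Benjamini-Hochberg adjustment over all of them and calls below 0.05. CPM are counts scaled by the TMM-adjusted library size. Standard errors come from the F statistic. The interaction was fitted on all 8 libraries, and each pair of replicates was also fitted alone.

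Groups and replicate numbers come from the sample titles. Libraries of the same number deviated together (correlation across genes of log2(CPM + 1) deviations 0.42, 0.46, 0.52 and 0.48). Deviations were from the mean of each genotype over both column spellings, so the split by spelling enters these values. For each WT library the ATF4OE library of the same number had the highest correlation, so the numbers were taken to pair the samples. Values were printed per library for members averaging at least 1 CPM in a group and for called members, with up to 4 genes of each other list by smallest p, plus Ncr1, Tyrobp, Hcst, Cd8a and Atf4. Eomes, Cd163l1 and the ratios to Ncr1 were added after values were seen. Members and lists were chosen with earlier results of these data known. Alternatives were the blocks, subsets, left-out libraries, other scalings and filters, DESeq2 1.42.0 and limma-voom (limma 3.58.1). The test was tested on simulated data. Counts come from amplified reads without molecular identifiers, so floors cover counting error only, and not the low counts that some libraries lack.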

Additional observations from a re-analysis of the deposited data

Results flagged for a closer look

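For 13 receptor genes the difference between ATF4OE and WT itself differed between the 2 column spellings, by the interaction term in edgeR. The values are the log2 difference in replicates 3 and 4 minus that in replicates 1 and 2. They were -3.86 for Klra4, -3.75 for Klri2, -3.45 for Klra8, -3.26 for Klre1, -3.12 for Klrb1b, -3.001 for Klrb1a, -2.78 for Klrc2, -2.46 for Klrg1, -2.43 for Klra9, -2.39 for Klrb1c, -2.07 for Klrk1 and -1.73 for Klrc1. Klra2 had -7.41, a fitted value against 0 counts in WT replicates 1 and 2 that depends on the prior count. Among other named genes the same term was called for the NK cell and myeloid genes Ncr1 (-3.71), Cd244a (-2.87), Tyrobp (-2.57), Clec7a (-2.56), Fcer1g (-2.11) and Itga2 (-1.37), for Styk1 (-2.43) in the gene complex and for Cd4 (-2.94). For Car1, an erythroid gene, it was 2.09, so its difference was the larger in replicates 3 and 4.

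Libraries far from the rest of their group were found for 2 genes of low count. Klra17 was at 0.100 CPM in WT replicate 3 and at 0 in the other WT libraries, and Klrc3 was at 0.321 CPM in WT replicate 4 and at most 0.0250 CPM in the others. Of 156 groups examined, chance alone would mark about 1 in 20.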

How the results depend on the processing

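The count of receptor genes called higher, 12, was 22 in replicates 1 and 2 alone, 3 without the libraries that lack low counts, 19 with DESeq2 and 7 to 13 with 1 library left out (7 without WT replicate 2 or ATF4OE replicate 2). It was 10 with the replicate block, 15 with the column spelling as a block, 13 in replicates 3 and 4 alone, 12 with RLE or upper-quartile factors, 10 without a low-count filter, 15 with a stricter one and 13 with limma-voom. The count called lower, 0, was 1 (Klrd1) with the replicate block, with the column spelling as a block and in replicates 3 and 4 alone, and 0 under the other settings, left-out libraries included. In replicates 3 and 4 alone the sign turned for Klra4 (-0.0896), Klre1 (-0.0515) and Klri2 (-0.00784). Without the libraries that lack low counts it turned for Atf4 (-0.11) and Cxcr6 (0.14), neither of them called. That subset sets WT replicates 2 and 3 against ATF4OE replicates 3 and 4, so column spelling is not balanced in it. Within replicates 1 and 2 and within replicates 3 and 4, Atf4 was called higher (0.59 and 0.41). Cxcr6 had estimates of -0.34 and -0.19 there, neither called. The cause of the turned signs was not tested, apart from fewer libraries in the subsets. Other scalings moved the median of all genes by at most 0.04 on the log2 scale. Depth limits Klra2, Klra5, Klra17, Klri1, Klrb1 and Klrc3, each with at most 104 counts over the 4 WT libraries.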
